A study of Mus musculus with 3 samples.

Results

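Imprinted genes, which are expressed mainly or only from the copy inherited from 1 parent, were followed in mouse embryoid bodies lacking Hopx. Embryoid bodies are clumps of stem cells that differentiate into a mixture of early cell types, and Hopx encodes a small homeodomain protein of heart and progenitor cells. The set was a fixed list of 37 known imprinted genes, 16 expressed from the maternal and 21 from the paternal copy. Of these, 26 lie in 7 clusters that hold several of them, and 11 have no other listed gene near them. Probes were assigned through the accession printed for each probe, and each gene was represented by its brightest probe. A probe was found for 35 of the 37, and 34 were bright enough to test, among 19802 genes tested in all. H19 and Rian had no probe matched by accession here. The probe of Rtl1, a retrotransposon-derived placental gene, was well above background on 1 of 3 null arrays and on no heterozygous array, so that it was not tested.

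The mutant cultures were Hopx-/- embryoid bodies, called null, and the comparison cultures were Hopx+/- embryoid bodies, called heterozygous, which carry 1 working copy. Both were collected at day 8 of cardiac differentiation, with 3 biological replicates each, and 1 null and 1 heterozygous sample shared each 2-colour Agilent array. Per the labels' protocols, the stem cells of both genotypes came from blastocysts, were derived on STO feeder cells and kept on inactivated embryonic fibroblasts, and the embryoid bodies were formed in hanging drops and then plated in a cardiac medium with VEGF, bFGF, FGF10 and ascorbic acid. No wild-type culture was compared. The labels do not say whether replicates were separate lines or separate differentiations of 1 line, so p-values cover only the spread of the samples at hand, which may be technical, and genotype cannot be told apart from a difference between lines. In these bulk samples, fewer cells of a type and less RNA per cell cannot be told apart, and an array probe reads both parental copies together, so that no value here says from which copy a transcript came.

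All ratios are log2 null over heterozygous, with the 2 dyes of replicate 3 turned. The labels give Cy5 to the null sample on all 3 arrays, but across probes the scanned ratios of replicate 3 correlated with those of replicates 1 and 2 at r = -0.903 and r = -0.901, with r = 0.939 between the other two. Probes are no independent replicates, and these r only describe the arrays. The authors' deposited value table runs opposite to the scanner ratios on replicate 3 (r = -0.941) and with them on replicates 1 and 2 (r = 0.959 and r = 0.951), and its direction was followed. With replicate 3 as labelled, limma called 0 genes and 0 of the 34 imprinted genes, with 61 genes and 0 imprinted genes at an unadjusted p under 0.05. Without replicate 3, limma called 6 imprinted genes higher and 18 lower, against 6 and 19 with it. Hopx itself gave null levels of 7.57, 7.63 and 7.15 on arrays 1 to 3, against heterozygous levels of 10.55, 10.59 and 10.59 (log2 intensity). The mean ratio was -3.13 over 3 arrays (SE 0.11), and limma gave an adjusted p of 2.8e-07. Here and below, an adjusted p is limma's with Benjamini-Hochberg adjustment over all probes tested, a call means an adjusted p under 0.05, and an SE is limma's moderated SE over the 3 arrays.

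Imprinting rests on DNA methylation laid down differently in egg and sperm at control regions, and kept through the wave of demethylation of the early embryo with the help of factors such as the zinc-finger protein Zfp57, which binds a methylated hexamer. Within a cluster, the methylated region sets which genes are read from which copy, often through a long non-coding RNA that silences neighbours on its own chromosome. Many imprinted genes are known for roles in fetal growth, the placenta and behaviour. Paternally expressed genes often favour growth, as the growth factor Igf2 does, and maternally expressed genes often restrain it, as the Igf2 clearance receptor Igf2r and the cell cycle inhibitor Cdkn1c do.

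The RefSeq promoter windows (GRCm38.p6, 250 bases before to 50 after the start) are printed for the genes with the largest falls and rises among those the table holds, to show how unlike the starts of the most changed imprinted genes are. The table had no window for Peg10. Capitals mark the hexamer TGCCGC, known as the core of the Zfp57 recognition site, or its reverse complement GCGGCA. The window of Airn, the paternally expressed RNA antisense to Igf2r, is chr17:12741061-12741360 on the plus strand. That of Zim1, a maternally expressed zinc-finger gene, is chr7:6696383-6696682 on the minus strand. The window of Asb4, a maternally expressed ubiquitin ligase adaptor, is chr6:5390160-5390459 on the plus strand, and that of Snrpn, a paternally expressed spliceosome component, is chr7:60005150-60005449 on the minus strand. Of several starts of a gene, the start with the most CG pairs was taken, among 2 for Asb4 and 4 for Snrpn.
Airn: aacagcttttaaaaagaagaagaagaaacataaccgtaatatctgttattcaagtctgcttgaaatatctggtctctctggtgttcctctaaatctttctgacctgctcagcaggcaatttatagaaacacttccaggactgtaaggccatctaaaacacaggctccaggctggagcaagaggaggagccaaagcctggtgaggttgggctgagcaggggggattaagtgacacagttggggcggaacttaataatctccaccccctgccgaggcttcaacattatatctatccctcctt
Zim1: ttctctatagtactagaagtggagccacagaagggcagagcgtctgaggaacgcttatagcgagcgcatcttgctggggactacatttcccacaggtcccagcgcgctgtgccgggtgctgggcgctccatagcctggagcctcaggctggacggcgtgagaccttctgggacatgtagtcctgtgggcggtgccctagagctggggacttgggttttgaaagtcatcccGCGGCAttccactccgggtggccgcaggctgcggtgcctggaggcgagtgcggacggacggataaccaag
Asb4: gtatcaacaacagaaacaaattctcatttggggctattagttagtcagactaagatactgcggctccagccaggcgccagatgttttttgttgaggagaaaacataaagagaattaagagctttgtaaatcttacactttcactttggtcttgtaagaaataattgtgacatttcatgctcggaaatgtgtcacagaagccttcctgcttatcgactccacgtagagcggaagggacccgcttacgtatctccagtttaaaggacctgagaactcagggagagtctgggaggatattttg
Snrpn: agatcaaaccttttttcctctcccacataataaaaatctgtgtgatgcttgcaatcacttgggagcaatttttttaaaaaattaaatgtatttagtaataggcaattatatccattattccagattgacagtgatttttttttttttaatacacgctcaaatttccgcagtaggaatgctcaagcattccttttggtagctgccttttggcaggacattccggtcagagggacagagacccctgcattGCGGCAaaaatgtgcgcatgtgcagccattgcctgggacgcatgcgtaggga

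The Airn window held 3 CG pairs and the Asb4 window 8, neither with the hexamer, while the Zim1 window held 20 CG pairs and the Snrpn window 7, each with 1 hexamer. Over the 30 members with a window, the hexamer in either orientation was found in 8 (26.7%), against 12.2% of 27025 genes by the same choice of start. The median number of CG pairs was 16 in the members' windows and 8 over all genes. The 8 genes were Snrpn, Mest and Nap1l5, which rose, Zim1, Meg3, Nnat and Grb10, which fell, and Plagl1, which did not pass the test. A match is a description of these letters and no evidence of binding, and the control regions of the clusters, many of which lie elsewhere, were not looked at.

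In null cultures, 19 of the 34 tested imprinted genes fell and 6 rose, while 9 did not pass the test. The share called was 73.5%, read against 60.3% of all genes tested. By direction, 55.9% of the imprinted genes were lower and 17.6% higher, and 30.1% of all genes were lower and 30.2% higher. Their median ratio was -0.38, with medians of -0.37, -0.36 and -0.36 on arrays 1 to 3, against 0.0034 over all genes, and 25 of 34 lay below the median of all genes. This split depends on the scaling. With arrays centred on their medians and no loess, the median of all genes moved to 0.23, 11 imprinted genes were called higher and 10 lower, and 21 of 34 lay below the median of all genes. Under that scaling the falls of Dlk1, Grb10, Igf2, Kcnq1ot1, Mkrn3, Nnat, Peg3, Sgce and Zrsr1 were not called, and Gnas, Mirg, Plagl1, Ppp1r9a and Slc38a4 were called higher. Nap1l5 and Rasgrf1 passed the filter only through the genotype in which they were higher. With loess and both channels required well above background, 32 imprinted genes were tested, of which 18 fell and 5 rose. Of 18050 genes tested in that way, 5581 were lower and 5383 higher. With the filter used throughout, the ratio had 1 sign on all 3 arrays for each of the 25 called genes. For 24 of them the null and heterozygous channel levels did not overlap, the exception being Mest. Since a call rests on these same values, both counts largely follow from it and add no support. Neither share was computed over all genes. At 2-fold or more, 6 fell (Peg10, Airn, Zim1, Cdkn1c, Meg3 and Slc22a18) and 4 rose (Asb4, Snrpn, Magel2 and Dcn). Among all genes, 6.03% were called lower and 4.87% higher at that size, 10.9% together.

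**Figure D1:**
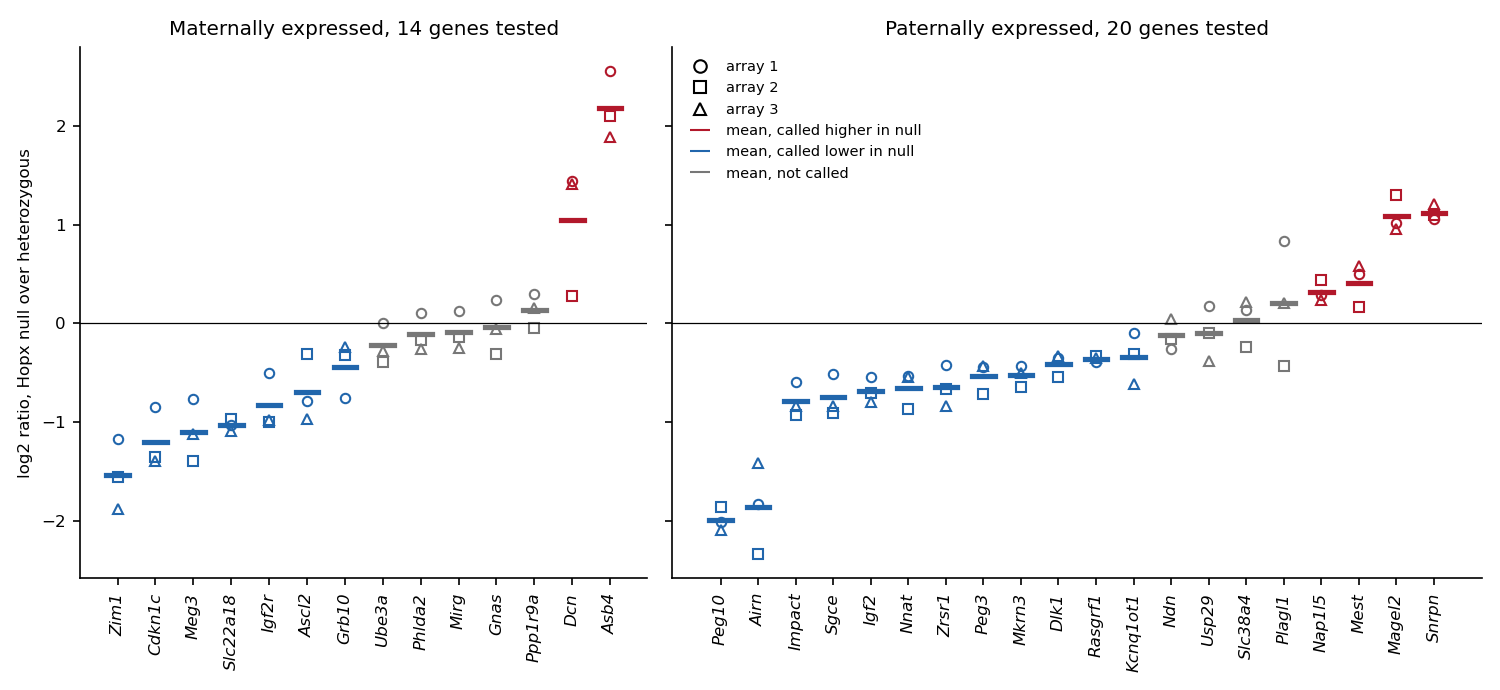
Log2 ratio, null over heterozygous, of the 34 tested imprinted genes on arrays 1 to 3 (open symbols) with the mean of the arrays (bar), in 2 panels for maternally and paternally expressed genes. Red marks genes called higher in null, blue genes called lower and grey genes not called; Asb4 at 2.19 and Peg10 at -1.99 are the extremes, and all 3 arrays of each called gene lie on 1 side of 0.

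Marker lists of the cell types that embryoid bodies and feeder layers can hold were read beside the imprinted genes. Over all genes, 30.1% were called lower and 30.2% higher, 60.3% together. All 8 visceral endoderm markers fell (median -2.45, Cubn -4.25 and Amn -3.14), with summed linear signals of 12500 to 16700 in null samples and 63000 to 80700 in heterozygous samples. All 6 cardiomyocyte markers fell (median -3.52, Myh6 -5.31 and Myh7 -5.11), with sums over the 5 measured on every array of 2170 to 3840 in null samples and 83000 to 113000 in heterozygous samples. Of 8 feeder and fibroblast markers, 6 rose and 1 fell (Col1a2 1.59 and Fbln5 1.26), with sums over 6 of 45500 to 63900 in null samples and 20700 to 29600 in heterozygous samples. Of 7 trophoblast markers, 4 could be tested, of which 2 fell (Gcm1 -1.23 and Cdx2 -1.10), and 2, Elf5 and Tpbpa, named because they define the type and not for their change, were too dim to test in either genotype. Trophoblast sums over 6 were 2880 to 3640 in null samples and 5040 to 6020 in heterozygous samples. The part of these cell types in the ratios of the imprinted genes was not tested.

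Both parental classes held genes that fell and genes that rose. Of 14 tested maternally expressed genes, 7 fell and 2 rose (median -0.33), and of 20 tested paternally expressed genes, 12 fell and 4 rose (median -0.38). The shares called were 64.3% and 80.0%, against 60.3% of all genes, of which 30.1% were lower and 30.2% higher. The maternal share called was thus close to that of all genes. The maternal minus the paternal median was 0.05 over the mean ratios, and 0.12, 0.17 and 0.13 on the single arrays. The order of the classes is not stable. In the authors' deposited table, with all members, the maternal median was -0.38 and the paternal -0.29. For 10 of the 37, 8 maternal and 2 paternal, imprinting is known only in some tissues or for some transcripts, and without them the maternal median was -0.96 (6 genes, 4 lower and 0 higher) and the paternal median -0.46 (18 genes, 11 lower and 4 higher). The difference then ran the other way, at -0.50, with -0.25, -0.58 and -0.58 on the arrays. Medians over a chosen set of genes carry no test.

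**Figure D2:**
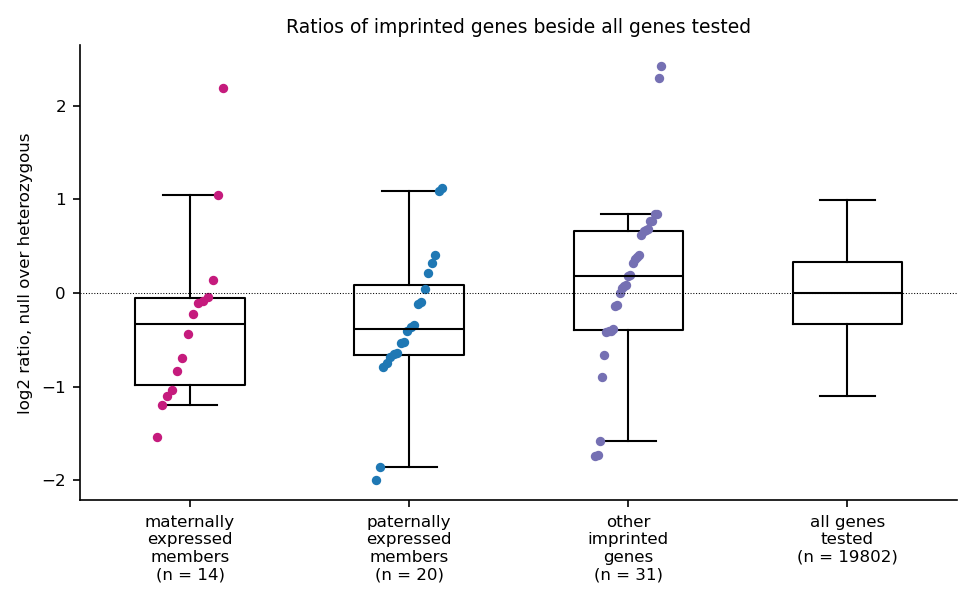
Log2 ratios, null over heterozygous, of maternally expressed members (14), paternally expressed members (20), other imprinted genes (31) and all 19802 genes tested; dots are genes, boxes span the quartiles with the median as a line, and whiskers reach the 5th and 95th percentiles. Both classes of members have medians below 0 (-0.33 and -0.38), the other imprinted genes have a median of 0.18 and all genes one of 0.0034.

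The Peg10-Sgce cluster on chromosome 6 held both extremes of the set, the paternally expressed Peg10 at the low end and the maternally expressed Asb4 at the high end. The imprint of Asb4 is known only in some tissues or for some transcripts. Peg10, a retrotransposon-derived gene needed for the mouse placenta, had null levels of 8.30, 8.21 and 8.08 and heterozygous levels of 10.31, 10.07 and 10.18 (log2 intensity, arrays 1 to 3). All 3 null samples lay below all 3 heterozygous ones, and the ratio of -1.99 (SE 0.09, adjusted p = 7.4e-07) was the 205th lowest of 19802. A second Peg10 probe gave -1.46 (SE 0.13). Asb4 had null levels of 13.13, 12.95 and 12.98 and heterozygous levels of 10.57, 10.85 and 11.09. Null samples were the high ones throughout, and the ratio of 2.19 (SE 0.13, adjusted p = 2.5e-06) was the 76th highest of all genes. The dimmer Asb4 probe rose by 1.10 (SE 0.09).

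Sgce, which encodes epsilon-sarcoglycan and is read outward from the same paternal start region as Peg10, had null levels of 12.02, 11.50 and 11.51 and heterozygous levels of 12.53, 12.40 and 12.35. It fell by 0.75 on the log2 scale (SE 0.10, adjusted p = 2.6e-04), with no overlap between the genotypes. Its fall was the smaller of the pair on every array, with Sgce minus Peg10 at 1.24 ± 0.28 (SD, n = 3 arrays). Ppp1r9a, the actin-binding neurabin, whose imprint is known in some tissues, stood at 0.14 (SE 0.09, adjusted p = 0.24), with overlapping channels. Peg10 minus Asb4 was -4.18 ± 0.35 (SD, n = 3 arrays), with -4.57, -3.96 and -3.99 on the arrays, the widest gap among the 33 pairs of members that share a cluster. With 3 arrays the exact sign-flip permutation test of a single difference cannot go below p = 0.25 (two-sided), which each pair with 1 sign on all arrays reached.

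Genes around this pair, named after their values were seen, were mostly higher. Of 11 tested genes from Calcr to Asb4, 8 rose, where 30.2% of all genes were called higher, and only Peg10 and Sgce fell. Calcr (0.77), Pon3 (0.62) and Pon2 (0.32), for which maternal expression is known in some tissues, rose, and so did the genes between them on neither list, Col1a2 (1.59), Gng11 (1.33), Casd1 (0.51) and Bet1 (0.44). Col1a2 is also one of the feeder and fibroblast markers.

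**Figure D3:**
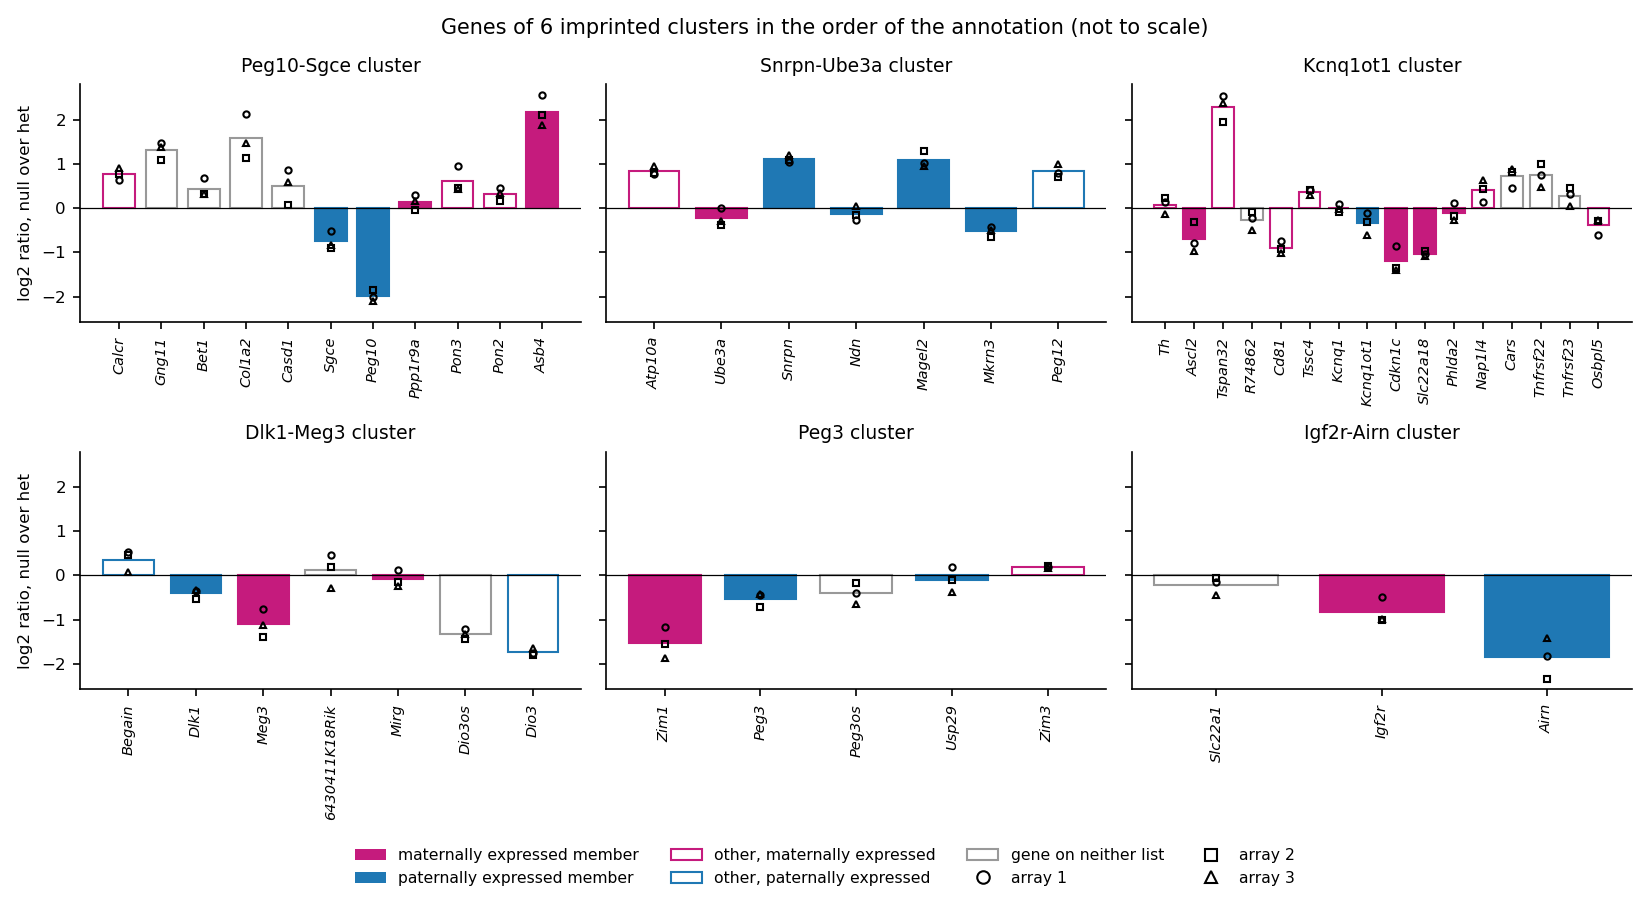
Log2 ratio, null over heterozygous, of each tested gene in 6 imprinted clusters, in annotation order and not to scale; bars are means of 3 arrays, symbols the arrays, filled bars members and open bars other genes, coloured by the parental copy expressed. In the Peg10-Sgce panel, Sgce (-0.75) and Peg10 (-1.99) stand below 0 between genes above it; in the Dlk1-Meg3, Peg3 and Igf2r-Airn panels no member is called higher, except Mirg with median centring and no loess.

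The Snrpn-Ube3a cluster on chromosome 7 is the counterpart of the human Prader-Willi and Angelman region. It had 2 members higher, 1 lower and 2 not called, where 30.2% of all genes were called higher and 30.1% lower. Snrpn had null levels of 12.49, 12.41 and 12.50 and heterozygous levels of 11.44, 11.31 and 11.30, and rose by 1.12 (SE 0.08, adjusted p = 9.7e-06). Its arrays were close, at 1.06, 1.10 and 1.21, and its other 2 tested probes rose by 0.84 and 0.48. Its transcript also carries the Snurf reading frame, so that the probes do not part the 2. Magel2, of the MAGE family of ubiquitin ligase regulators, had null levels of 9.73, 10.24 and 9.88 and heterozygous levels of 8.71, 8.94 and 8.92, and rose by 1.09 (SE 0.10, adjusted p = 2.3e-05). Neither gene showed overlap between genotypes, and Snrpn minus Magel2 was 0.03 ± 0.22 (SD, n = 3 arrays).

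Mkrn3, a RING-finger gene also expressed from the paternal copy, went the other way. Its null levels were 8.63, 8.22 and 8.18 and its heterozygous levels 9.05, 8.87 and 8.68, a fall of 0.52 (SE 0.09, adjusted p = 8.8e-04) that its second probe shared (-0.45, SE 0.10). Snrpn minus Mkrn3 was 1.64 ± 0.14 and Magel2 minus Mkrn3 1.62 ± 0.28 (SD, n = 3 arrays). Ndn, the MAGE-family gene necdin, lay between them at -0.12 (SE 0.09, adjusted p = 0.27). Ube3a, a ubiquitin ligase expressed from the maternal copy in neurons, was at -0.22 (SE 0.10, adjusted p = 0.082), with 0.00, -0.39 and -0.28 on the arrays. Of the 2 further imprinted genes tested there, both named after their values were seen, Peg12 and Atp10a each rose by 0.84.

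In the Dlk1-Meg3 cluster on chromosome 12, genes of both parental classes fell. Meg3, a maternally expressed long non-coding RNA, had null levels of 14.95, 14.66 and 14.62 and heterozygous levels of 15.72, 16.06 and 15.75. The genotypes did not overlap, and Meg3 fell by 1.10 (SE 0.12, adjusted p = 8.3e-05), with its other 2 tested probes at -0.69 and -0.41. Dlk1, a paternally expressed ligand related to those of Notch, had null levels of 15.67, 15.66 and 15.82 and heterozygous levels of 16.02, 16.20 and 16.15. It fell by 0.41 (SE 0.09, adjusted p = 3.6e-03), on a bright probe that was saturated on 1 null array, and its less bright probe fell by 0.33. Median centring without loess put Dlk1 at 0.02 and the authors' deposited table at -0.25, both uncalled.

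Mirg, a maternally expressed host of many microRNAs further along the cluster, was at -0.09 (SE 0.10, adjusted p = 0.48). Meg3 minus Mirg was -1.01 ± 0.21 (SD, n = 3 arrays). No single difference from Dlk1 is printed, since its probe was saturated on 1 array, but its pairs are kept in the counts over all pairs below. At the far end, Dio3, the paternally expressed enzyme that inactivates thyroid hormone and one of the list of other imprinted genes, had null levels of 7.59, 7.16 and 7.01 and heterozygous levels of 9.33, 8.97 and 8.66. It fell by 1.74 (SE 0.08, adjusted p = 1.0e-06). Its antisense RNA Dio3os fell by 1.32 (SE 0.09) and Begain, at the other end, rose by 0.36 (SE 0.11), both named after their values were seen.

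The Kcnq1ot1 cluster on chromosome 7 had 5 members, 4 of which fell and none of which rose, where 30.1% of all genes were called lower. Cdkn1c, which encodes the cell cycle inhibitor p57, had null levels of 13.59, 13.40 and 13.43 and heterozygous levels of 14.44, 14.74 and 14.82, and fell by 1.20 (SE 0.12, adjusted p = 4.1e-05). Slc22a18, a transporter, had null levels of 9.63, 9.29 and 9.12 and heterozygous levels of 10.66, 10.26 and 10.21, and fell by 1.03 (SE 0.08, adjusted p = 1.4e-05). In both genes every null sample was below every heterozygous one. Ascl2, a transcription factor required in mouse trophoblast, fell by 0.69 (SE 0.13, adjusted p = 1.5e-03), with -0.79, -0.31 and -0.97 on the arrays. Phlda2, a restrainer of placental growth, was at -0.11 (SE 0.10, adjusted p = 0.36), so that Cdkn1c minus Phlda2, 2 maternally expressed genes close to each other, was -1.09 ± 0.11 (SD, n = 3 arrays).

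Kcnq1ot1, the paternally expressed RNA that silences genes of this cluster on its own chromosome, had null levels of 8.84, 8.88 and 8.89 and heterozygous levels of 8.94, 9.19 and 9.49. It fell by 0.34 (SE 0.11, adjusted p = 0.023), but this call was lost without replicate 2, without replicate 3, in the authors' deposited table (adjusted p = 0.064), with unpaired channels (adjusted p = 0.11) and with median centring, where the ratio was -0.04. Of all 16 genes tested in the cluster, 7 fell and 6 rose, where 30.1% of all genes were called lower and 30.2% higher. The largest change was that of Tspan32, a tetraspanin on the list of other imprinted genes, with null levels of 10.44, 9.49 and 10.01 and heterozygous levels of 7.90, 7.55 and 7.63, a rise of 2.29 (SE 0.12, adjusted p = 1.5e-06).

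The remaining clusters held further falls. Airn, the paternally expressed RNA that overlaps Igf2r and silences it on its own chromosome, had null levels of 9.48, 9.41 and 10.17 and heterozygous levels of 11.31, 11.75 and 11.59. It fell by 1.86 (SE 0.15, adjusted p = 1.6e-05), and its second probe by 1.90 (SE 0.11). Igf2r, maternally expressed, had null levels of 14.12, 13.79 and 13.92 and heterozygous levels of 14.62, 14.79 and 14.90, and fell by 0.83 (SE 0.11, adjusted p = 3.1e-04). Both members of the pair were lower in every null sample, and Igf2r minus Airn was 1.04 ± 0.52 (SD, n = 3 arrays), with 1.33, 1.34 and 0.44 on the arrays. Igf2, the paternally expressed fetal growth factor that Igf2r clears, had null levels of 11.28, 10.99 and 11.29 and heterozygous levels of 11.82, 11.70 and 12.09, and fell by 0.68 (SE 0.09, adjusted p = 2.3e-04).

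In the Peg3 cluster, Zim1 had null levels of 8.11, 8.06 and 7.97 and heterozygous levels of 9.28, 9.62 and 9.85. It fell by 1.54 (SE 0.13, adjusted p = 1.8e-05), and its second probe by 1.77 (SE 0.13). Peg3, its paternally expressed zinc-finger neighbour, had null levels of 11.57, 11.43 and 11.70 and heterozygous levels of 12.01, 12.15 and 12.13, and fell by 0.53 (SE 0.09, adjusted p = 1.2e-03), uncalled in the authors' deposited table (-0.38, adjusted p = 0.065). Zim1 minus Peg3 was -1.01 ± 0.39 (SD, n = 3 arrays), and Usp29, a paternally expressed ubiquitin protease gene beside Peg3, was at -0.10 (SE 0.11, adjusted p = 0.48).

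**Figure D4:**
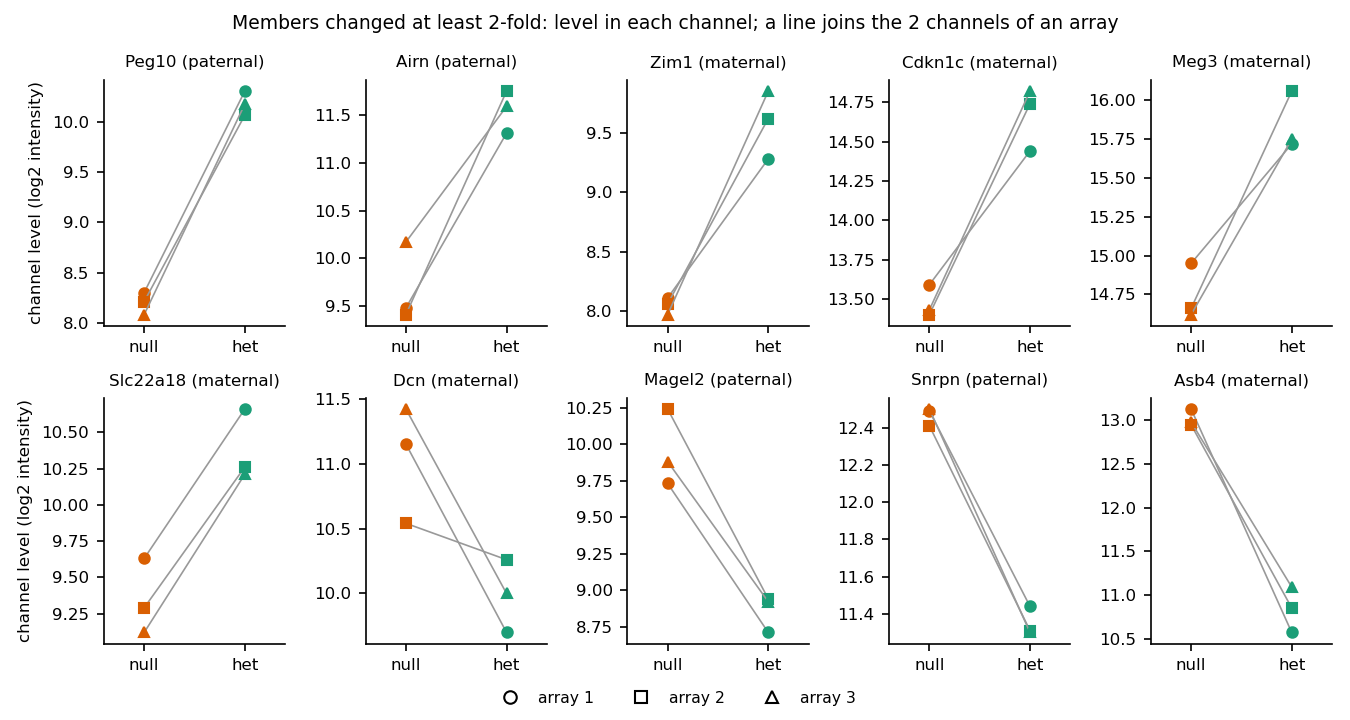
Channel level (log2 intensity) of the 10 imprinted genes changed at least 2-fold, null on the left and heterozygous on the right of each panel, with a line joining the 2 channels of an array and a scale of its own for each panel. In the 6 genes from Peg10 to Slc22a18 every null sample is below every heterozygous one, and in the 4 genes from Dcn to Asb4 every null sample is above; the line of array 2 is nearly flat for Dcn.

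Over all 33 pairs of tested members that share a cluster, the difference of their ratios had 1 sign on all 3 arrays in 29, and 16 pairs differed by at least 1 on the log2 scale. Both members were called in the same direction in 11 pairs and in opposite directions in 4, which were Peg10 and Asb4, Sgce and Asb4, Snrpn and Mkrn3, and Magel2 and Mkrn3. The median size of the difference was 0.965 in 16 pairs of 1 class and 0.89 in 17 pairs of different class, and 2 of the 4 opposite pairs fell in each kind. The pairs of Dlk1, whose probe was saturated on 1 null array, are included. Over all genes, 30.1% were called lower and 30.2% higher, and no like count is given for pairs of other neighbouring genes. Whether members of a cluster differ from such pairs was not tested. Pairs share members, so these counts are descriptions with no test.

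The genes next to and between the members of the 7 clusters that are on neither list of imprinted genes used here were tested alongside. They include antisense RNAs such as Dio3os, and they are no set known to be free of imprinting. Of 70 such genes tested, taken as 5 on each side and all between, 19 fell (27.1%) and 25 rose (35.7%), with a median of 0.04. The same shares over all genes were 30.1% and 30.2%.

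Of the 11 members with no other listed gene near them, 5 fell, 3 rose and 3 did not pass the test. Over all genes, 30.1% were called lower and 30.2% higher. Impact, a paternally expressed regulator of translation, had null levels of 11.39, 11.59 and 11.67 and heterozygous levels of 11.98, 12.52 and 12.51, and fell by 0.79 (SE 0.09, adjusted p = 1.4e-04). Nnat, which encodes the small membrane protein neuronatin, fell by 0.65 (SE 0.10, adjusted p = 5.1e-04) and its second probe by 0.77 (SE 0.14). Zrsr1, a paternally expressed retrogene for a splicing-factor-like protein, fell by 0.64 (SE 0.10, adjusted p = 6.3e-04). In these 3 genes, null and heterozygous samples did not overlap. Grb10, an adaptor that restrains insulin signalling, fell by 0.44 (SE 0.11, adjusted p = 9.0e-03), with -0.76, -0.32 and -0.24 on the arrays, a call that was lost without replicate 1, with median centring and in the authors' deposited table (adjusted p = 0.062). Rasgrf1, an activator of Ras, fell by 0.36 (SE 0.08, adjusted p = 5.0e-03) with a dim probe, at null levels of 6.41, 6.27 and 6.11 and heterozygous levels of 6.80, 6.60 and 6.46. The authors' deposited table gave -0.18, uncalled, unpaired channels lost the call (adjusted p = 0.061), and the scanner's processed signals gave -1.58, so that its size is not settled. The Rasgrf1 probe was well above background on 2 null arrays and 3 heterozygous arrays, so it was tested only through the heterozygous channels.

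Dcn rose most in this group and varied most between arrays. It encodes the matrix proteoglycan decorin and is known as maternally expressed in the mouse placenta. Its null levels were 11.15, 10.54 and 11.42 and its heterozygous levels 9.70, 10.26 and 10.00, so that the genotypes were far apart on arrays 1 and 3 and close on array 2. The ratio of 1.05 (SE 0.20, SD 0.67, adjusted p = 2.1e-03) came from 1.45, 0.28 and 1.42 on the arrays. The feeder and fibroblast markers, all named here after their values were seen, differed in this. Lum (1.62, 0.43 and 1.44) and Col3a1 (1.18, 0.08 and 1.15) were likewise high on arrays 1 and 3 and lower on array 2, where only Col3a1 was close to 0. Col1a2 (2.13, 1.14 and 1.49) and Fbln5 (1.30, 1.11 and 1.36) were high on all 3. Thy1 was slightly higher in null by a like amount on each (0.26, 0.26 and 0.29). Pdgfra was lower in null on each (-0.34, -0.73 and -0.57). Col1a1 was measured only on arrays 2 and 3 (-0.56 and 0.18, not called) and Postn only on arrays 1 and 3 (0.72 and 0.63). The median of the list was 1.18, 0.26 and 0.89 on the arrays, over the markers measured on each, so not over the same genes. The part of feeder or fibroblast RNA in the Dcn ratio was not tested.

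Mest, a paternally expressed gene of mesoderm, had null levels of 13.93, 14.28 and 14.53 and heterozygous levels of 13.43, 14.11 and 13.95, which overlapped. Within arrays it was higher in null each time, and it rose by 0.41 (SE 0.10, adjusted p = 7.1e-03), but neither of its other 2 probes was called (0.17 and 0.23), and unpaired channels lost the call (adjusted p = 0.17). Nap1l5, related to nucleosome assembly proteins, was not well above background on any heterozygous array, so its probe was tested only through the null channels. It had null levels of 6.43, 6.58 and 6.55 and heterozygous levels of 6.14, 6.14 and 6.31. The rise was 0.32 (SE 0.09, adjusted p = 0.010), or 1.25-fold. The call was lost without replicate 2 and in the authors' deposited table (0.21), and the scanner's processed signals gave 2.38, so that its size is not settled. Setting the dim channel to the higher of its own signal and the lowest signal well above background also gave 1.25-fold. That value is therefore the estimate and no lower limit.

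Plagl1, a paternally expressed zinc-finger regulator of other imprinted genes, was not called, at 0.21 (SE 0.20, SD 0.63, adjusted p = 0.39). Its arrays went both ways, at 0.84, -0.43 and 0.21, and without replicate 2 it was called higher at 0.53 (adjusted p = 0.017). A dim Plagl1 probe was called lower at -0.39 (SE 0.10). Gnas, which encodes the stimulatory G protein alpha subunit, was at -0.04 (SE 0.11, adjusted p = 0.77), and Slc38a4, an amino acid transporter, at 0.04 (SE 0.11, adjusted p = 0.75).

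Ratios of the members were more spread between arrays than those of genes at large. The median SD over the 3 arrays was 0.21 in the 34 tested members and 0.14 over all genes on 3 arrays. Array 2 gave the lowest of the 3 ratios in 16 of 34 members (47.1%), against 32.0% of all genes and 5 of 6 feeder and fibroblast markers measured on 3 arrays. These are descriptions with no test.

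**Figure D5:**
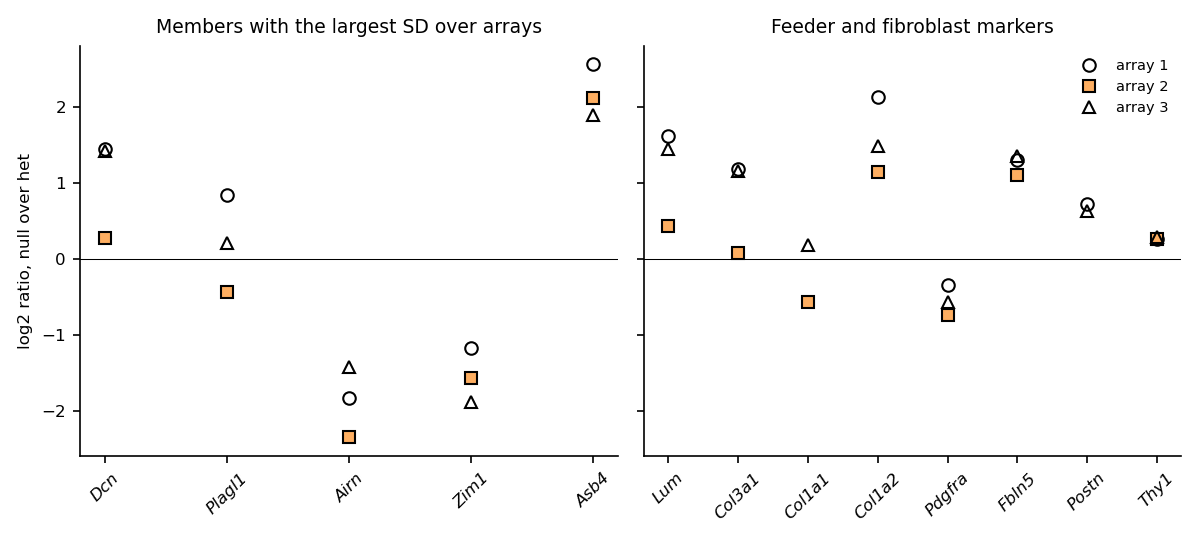
Log2 ratio, null over heterozygous, on each array for the 5 members with the largest SD over arrays (left) and for the feeder and fibroblast markers (right); array 2 is filled orange. Array 2 is the lowest of the 3 for Dcn (0.28), Plagl1 (-0.43) and Airn but not for Zim1 or Asb4, and lowest for Lum (0.43) and Col3a1 (0.08); Col1a1 and Postn lack 1 array each.

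A further list of 40 imprinted genes outside the set had 31 tested, of which 14 rose, 9 fell and 8 did not pass, with a median of 0.18, where 30.2% of all genes were called higher and 30.1% lower. Median centring without loess called 17 higher and 4 lower. The 4 with the largest change were Peg13, Tspan32, Dio3 and Inpp5f. Peg13, a paternally expressed non-coding RNA, had null levels of 9.82, 9.84 and 9.62 and heterozygous levels of 7.48, 7.28 and 7.26, and rose by 2.42 (SE 0.09, adjusted p = 3.1e-07). Inpp5f, an inositol phosphatase with a paternally expressed brain transcript, had null levels of 6.70, 6.69 and 6.51 and heterozygous levels of 8.35, 8.35 and 8.39, and fell by 1.73 (SE 0.09, adjusted p = 1.4e-06). With Tspan32 and Dio3, given with their clusters, 2 of these 4 rose and 2 fell.

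Genes that set, keep or read imprints were examined as a list of 22, of which 20 were tested, 11 rose, 6 fell and 3 did not pass (median 0.32), where 30.2% of all genes were called higher and 30.1% lower. Tet2, named after its value was seen, fell by 0.87 (SE 0.11, adjusted p = 2.5e-04), and the other falls ranged from -0.35 to -0.22. Only 1 regulator was called lower in the authors' deposited table, with unpaired channels or with the scanner's processed signals. The same count held with median centring, with each probe's own spread or without replicate 2. Dnmt3b, a DNA methyltransferase that adds new methylation, had null levels of 14.97, 15.24 and 15.29 and heterozygous levels of 12.21, 12.06 and 12.56, and rose by 2.89 (SE 0.11, adjusted p = 3.3e-07). Uhrf1, which brings the maintenance methyltransferase to newly made DNA, rose by 1.19 (SE 0.09, adjusted p = 9.1e-06). Dppa3, which protects methylation in the mouse zygote, rose by 1.06 (SE 0.13, adjusted p = 1.5e-04), and the insulator protein gene Ctcf by 0.93 (SE 0.09, adjusted p = 3.5e-05). Zfp57 itself, given because its hexamer was searched and not for its change, was at -0.06 (SE 0.10, adjusted p = 0.60), with overlapping genotypes. Markers of pluripotent cells, in which Dnmt3b and Dppa3 are also expressed, moved as well, 5 of 6 higher and 1 lower, and all 5 tested neural markers rose. The part of these cells in the regulators' ratios was not tested. No methylation was measured in the data used here.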

How the data were processed

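RNA of day 8 embryoid bodies was measured on 3 2-colour arrays on 1 slide and in 1 scan, so neither could serve as a block. The deposited spot intensity values (foreground and background medians, flags) and processed intensities came, per the file headers, from Agilent Feature Extraction 11.5.1.1. Version 8.5.1.1 is the one in the submitters' processing notes. The scanner's log10 ratios, per the file headers Cy5 over Cy3, were not used for results. The authors deposited a value table with no stated scale, read as log2 ratios because its slopes on the scanner ratios were near 1 in size, with column medians of -0.10, -0.111 and 0.072. Its normalization and centring are not given in the sources used here, and it served for the direction of replicate 3 and as an alternative.

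The spots were read into R 4.3.3 and limma 3.58.1. Normexp (offset 50) corrected the background and loess normalized ratios within arrays, with control and outlier spots left out, saturated spots kept and spots of a probe averaged. With replicate 3 turned, 2 arrays hold one dye orientation and 1 the other, which leaves part of any dye effect in the mean. A probe was tested if every null channel or every heterozygous channel of the 3 arrays had it well above background, and if it was measured on at least 2 arrays (24552 of 39429 probes). Ratios were tested against 0 with lmFit and eBayes, adjusted by Benjamini-Hochberg over the probes tested, with an adjusted p threshold of 0.05. Accessions without their versions, matched to a RefSeq gene table, named 28025 probes (71.1%), and that table also gave chromosomes and gene order. The share of the 43020 non-control spots well above background was 61.9% in the dimmest channel and 72.9% in the brightest. Precision is limited by there being 3 arrays. The fit was tested on simulated data.

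The members, their parental classes and clusters, and the lists of other imprinted genes, imprint regulators and cell markers were chosen with earlier results of these data known. Beyond the members and Hopx, the rule names the 4 called genes of largest change of the first 2 lists and the 2 of largest change of a marker list that a result is set beside. Genes named outside it are marked in the text. The ratio within an array pairs the 2 samples of a replicate. Alternatives changed the background correction, signals, scaling, source table, filter, arrays kept, dye direction, pairing, statistic, dye term and probe rule.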

Additional observations from a re-analysis of the deposited data

How the results depend on the processing

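Of 25 called members, 13 kept their call under each alternative run other than replicate 3 as labelled and the ordinary statistic (Peg10, Asb4, Cdkn1c, Slc22a18, Ascl2, Igf2r, Airn, Zim1, Meg3, Snrpn, Magel2, Impact and Dcn), and 12 lost it under at least 1. When the channels of an array were unpaired (no replicate block), 5 members were called higher and 17 lower (Mest, Kcnq1ot1 and Rasgrf1 lost), and regulators called lower came to 1. Median centring without loess called 11 members higher and 10 lower, with other imprinted genes called lower at 4, regulators called lower at 1, and maternal and paternal medians of -0.01 and -0.08. It lifted the all-gene median to 0.23 and put 7 members above 0 that were below 0 with loess, Dlk1 (0.02), Mirg (0.35), Gnas (0.39), Phlda2 (0.26), Usp29 (0.15), Ndn (0.24) and Ube3a (0.07), of which only Dlk1 was called with loess. Falls that stayed called shrank by over 1.5 times for Cdkn1c (-0.77), Slc22a18 (-0.68), Ascl2 (-0.38), Igf2r (-0.40), Meg3 (-0.66) and Impact (-0.37), and Mest stood at 0.84. With each probe's own spread in place of the shared one, 3 members were called higher and 3 lower, other imprinted genes 6 higher and 5 lower, and regulators 1 lower. With replicate 3 as labelled, the counts of members, other imprinted genes and regulators called in either direction were 0, as was that of neighbour differences of 1 sign. The maternal and paternal medians were then -0.04 and -0.14, and Kcnq1ot1 stood at 0.06. The authors' deposited table called 5 members higher and 14 lower, without Peg3, Dlk1, Grb10, Rasgrf1, Kcnq1ot1 and Nap1l5, and gave medians of -0.38 and -0.29 and 1 regulator lower, and the processed signals medians of -0.37 and -0.45 and 1 regulator lower. The paternal median was -0.46 with both channels above background and -0.47 without background correction. Without members of limited imprinting the medians were -0.96 and -0.46. Leaving out 1 array at a time gave 1 to 4 regulators lower against 6 with all arrays, a maternal median from -0.37 to -0.31, a paternal one from -0.45 to -0.36, 6 members higher each time and 18 to 19 lower. Without replicate 2, Nap1l5 and Kcnq1ot1 lost their calls and Plagl1 gained one, without replicate 1 Grb10 lost and Ube3a gained one, and without replicate 3 Kcnq1ot1 lost its call. The causes of these changes were not tested. The slide as a block was not run, since there was 1 slide. Members near background (Nap1l5, Rasgrf1 and Rtl1) are the least well measured.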

Other observations

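Genes of the sex chromosomes, 5 named as a whole list and not for their change, were read because stem cell lines can differ in sex. Eif2s3y, on the Y chromosome, fell by 1.57 (SE 0.13, n = 3 arrays by limma), while Ddx3y at -0.17 (SE 0.12) and Uty at -0.18 (SE 0.08) did not pass the test, and Xist and Kdm5d were not well above background on any array of either genotype.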
